A study of Mus musculus with 6 samples.

Results

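Cluster 4 of the deposited nuclei comprised 2282 of 38154 single nuclei from mouse small intestinal organoids, and its members were taken by that cluster number alone, in all 6 samples. Organoids grown from jejunal crypts of C57BL/6 mice aged 8 to 12 weeks had been cultured in medium conditioned by quiescent mouse embryonic fibroblasts (quiescent conditioned medium, QCM) or by senescent fibroblasts (senescent conditioned medium, SCM), with 3 samples per medium. The fibroblasts of the QCM control were growth arrested by serum withdrawal, and those of the SCM were made senescent by X-ray irradiation or doxorubicin. The labels do not say which of these was used for the nuclei, nor whether the samples of a medium came from separate mice, so that p-values measure the spread between these samples, which may be technical. The organoids are cultures of epithelium and hold no fibroblasts, immune cells or vessels by design. The nuclei were profiled by single-nucleus RNA-seq (snRNA-seq) in droplets, with reads from the 3′ end of transcripts counted as unique molecular identifiers (UMIs).

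Satellite DNA consists of short units repeated in tandem, and in the mouse the major satellite makes up the heterochromatin beside the centromere. Its transcripts are low in most cells, and a few gene models of the reference genome lie inside satellite arrays and collect the reads that match them. Nuclear RNA also differs from that of whole cells in that unspliced transcripts make up much of it, so that very long genes can contribute reads from their introns. The genes given for cluster 4 are either satellite-like or very long. Whether reads from introns entered their counts was not tested. Gm10800, Gm10801 and Gm26870 are predicted genes in satellite-like sequence, Agbl4 encodes a carboxypeptidase that trims glutamate chains from tubulin, and Pcdh15 encodes a protocadherin best known from the tip links of sensory hair cells.

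The sequence that unites the satellite-like genes is shown here because reads of one such gene could be assigned to another. Gm26870 is a long intergenic noncoding RNA gene at chr9:3000282-3038313 on the minus strand of mm10, and its longest GENCODE transcript of 1170 bases was most like itself at a shift of 234 bases, where 81.5% of positions were equal. Gm10800 is a predicted coding gene at chr2:98666547-98667301 on the minus strand with a transcript of 660 bases, and Gm10801 lies at chr2:98662237-98664083 on the plus strand with 504 bases. Both were less like themselves, by 56.3% at a shift of 225 bases and 52.7% at 231. Both genes are annotated as protein coding. The capitals mark the 12-base motif GAAAACTGAAAA, the most frequent 12-mer of Gm26870, and, in the other genes, its reverse complement TTTTCAGTTTTC. One stretch of 234 bases is given for each gene, 5′ to 3′ as transcribed, from bases 189 to 422, 20 to 253 and 1 to 234 of the transcripts.
Gm26870: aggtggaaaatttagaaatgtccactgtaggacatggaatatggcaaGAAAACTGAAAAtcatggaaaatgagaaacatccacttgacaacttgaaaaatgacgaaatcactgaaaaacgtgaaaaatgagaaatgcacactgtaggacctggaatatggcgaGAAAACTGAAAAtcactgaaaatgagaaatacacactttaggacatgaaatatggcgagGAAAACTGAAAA
Gm10800: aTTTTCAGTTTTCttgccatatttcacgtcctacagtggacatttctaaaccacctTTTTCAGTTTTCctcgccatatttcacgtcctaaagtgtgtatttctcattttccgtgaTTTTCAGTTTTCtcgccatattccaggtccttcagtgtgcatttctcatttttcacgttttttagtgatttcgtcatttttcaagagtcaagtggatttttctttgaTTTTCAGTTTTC
Gm10801: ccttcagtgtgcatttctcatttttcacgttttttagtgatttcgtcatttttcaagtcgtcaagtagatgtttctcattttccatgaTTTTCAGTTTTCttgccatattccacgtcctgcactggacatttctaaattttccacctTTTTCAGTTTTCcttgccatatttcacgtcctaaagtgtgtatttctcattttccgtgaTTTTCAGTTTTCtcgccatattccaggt
The motif occurred 13 times in Gm26870, 7 times in Gm10800 and 5 times in Gm10801. It was present on either strand in 86 of 31244 genes with a transcript (0.275%), among them all 13 genes of a list of satellite-like genes that lie at these loci on chromosomes 2 and 9 and on chromosome 14. Of the 12-mers of Gm10800 and Gm10801, 64.7% and 55.0% were found in Gm26870 when reverse complemented, and 0% in the strand as transcribed. The A-rich strand is thus the one transcribed in Gm26870 (45.8% A) and the T-rich strand in Gm10800 and Gm10801 (45.8% and 47.4% T). Since these genes share much of one repeat, their separate counts are uncertain, and 8 of the other genes of the list lie inside the span of Gm26870 on the opposite strand, with 1 more overlapping its end.

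Nuclei of cluster 4 were unevenly spread over the samples. They made up 6.46% of QCM replicate 1 (245 of 3791 nuclei; 95% Wilson interval 5.72 to 7.29%), 1.99% of QCM replicate 2 (158 of 7930; 1.71 to 2.32%) and 12.4% of QCM replicate 3 (1261 of 10144; 11.8 to 13.1%). In SCM, they made up 36.5% of replicate 1 (157 of 430; 32.1 to 41.2%), 3.68% of replicate 2 (185 of 5026; 3.19 to 4.24%) and 2.55% of replicate 3 (276 of 10833; 2.27 to 2.86%). QCM replicate 3 alone supplied 55.3% of the cluster, and SCM replicate 1, the smallest sample, had the highest share. The intervals cover counting error only.

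**Figure D1:**
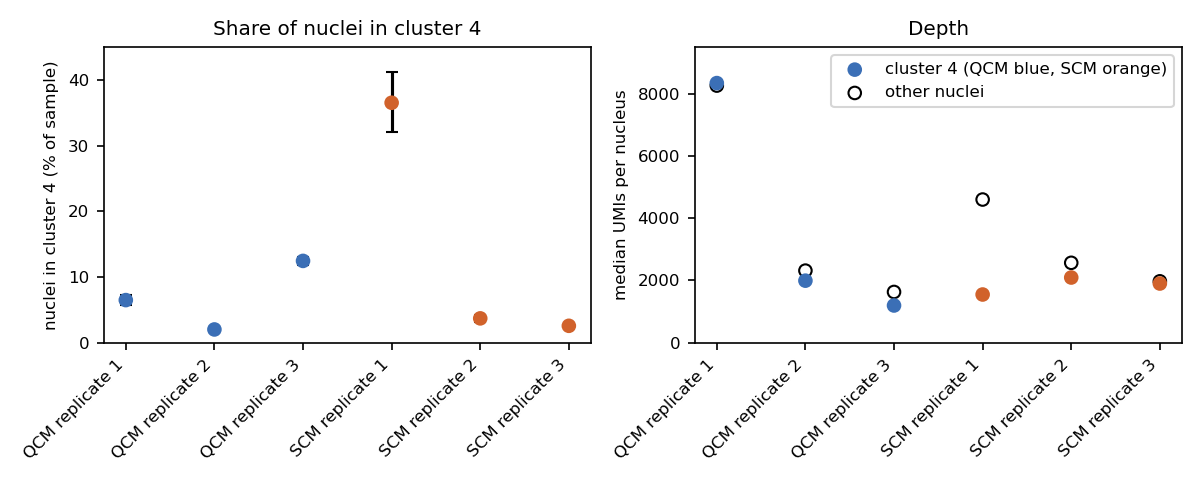
Left, nuclei of cluster 4 as a percentage of all nuclei of each of the 6 samples, with 95% Wilson intervals; right, median UMIs per nucleus of cluster 4 (filled) and of all other nuclei (open). SCM replicate 1 has the highest share (36.5%) and the widest gap in depth (1544 against 4597 UMIs), and QCM replicate 1 is the deepest sample.

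The shares of the media overlapped, and the difference between them was smaller than the spread between samples. The mean share was 6.96% ± 5.24 in QCM and 14.2% ± 19.3 in SCM (SD, n = 3 each; two-sided exact permutation test, p = 0.8, where 0.1 is the smallest p that 3 samples against 3 allow). In a fit of the nuclei of all 15 clusters, the log2 ratio of SCM to QCM for cluster 4 was 1.00 ± 1.21 (SE; edgeR quasi-likelihood test, adjusted p = 0.825), and none of the 15 clusters was called (0%; 0 at an unadjusted p under 0.05, and limma on transformed shares gave an adjusted p of 0.958 for cluster 4, over a range of 0.720 to 0.958 in the alternatives). The ratio changed direction to -1.16 without SCM replicate 1 and to -0.44 without SCM replicate 1 and QCM replicate 3.

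SCM replicate 1 stood apart in a further way. It shared 175 cell barcodes with QCM replicate 1, 40.7% of its nuclei, whereas no other pair of samples shared more than 36. Of the 157 nuclei of cluster 4 in SCM replicate 1, 65 carried a shared barcode and 8 were in cluster 4 in both samples. Cluster 4 took 37.1% of the shared and 36.1% of the other barcodes of SCM replicate 1. Whether nuclei with a shared barcode belong to the sample, and so to the medium, they are filed under was not tested. Results that rest on this sample or on QCM replicate 3 are given below with and without them.

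Depth was like or below that of the other nuclei. The median nucleus of cluster 4 held 8340, 1989 and 1191 UMIs in QCM replicates 1 to 3 and 1544, 2090 and 1897 in SCM replicates 1 to 3, against 8260, 2312, 1626, 4597, 2563 and 1968 UMIs in all nuclei outside it. Thus it was lower than the others in 5 of 6 samples, by the most in SCM replicate 1 (ratio 0.336). Between the media, the median UMIs of cluster 4 (3840 ± 3917 in QCM and 1844 ± 277 in SCM; SD, n = 3), the genes detected after thinning each nucleus to 1000 UMIs (735 ± 61.9 and 750.3 ± 53.1) and the mitochondrial percentage (3.01 ± 2.49 and 2.49 ± 1.33) gave exact permutation p of 0.8, 0.9 and 0.8, each 0.9 after adjustment over the 3. The direction for UMIs depended on QCM replicate 1, without which SCM was higher by 254 UMIs.

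Cluster 4 held fewer genes per UMI and more mitochondrial UMIs than the remaining nuclei, sample by sample. After thinning to 1000 UMIs, the median nucleus of cluster 4 had 682, 803 and 720 genes in QCM and 689, 782 and 780 in SCM, against 713, 808 and 777 and 805, 789 and 785 in the other nuclei, so that it was lower in 6 of 6 samples. Before thinning, the medians ranged from 716 to 3136 genes in cluster 4 and from 1127 to 3286 in the other nuclei. Thinning left out nuclei with fewer UMIs, and 741 of 1261 nuclei of cluster 4 remained in QCM replicate 3. The median mitochondrial percentage was 1.08, 2.11 and 5.82% in QCM and 1.04, 2.79 and 3.64% in SCM, against 1.00, 1.82, 3.46, 0.624, 2.19 and 3.54% in the other nuclei, and was thus higher in 6 of 6 samples. These are descriptions of a cluster that was made from the same nuclei, with no test.

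The genes given for the cluster were higher in it than in all other nuclei of the same sample, but to very different levels. Levels are given as UMIs per 1000000 UMIs of the summed nuclei (CPM), and ratios as the mean over samples of log2((CPM in cluster 4 + 5)/(CPM in other nuclei + 5)). Gm26870 was at 379.7, 312 and 4368 CPM in QCM replicates 1 to 3 and at 115, 591 and 383 CPM in SCM replicates 1 to 3, against 122, 31.7, 687, 73.7, 94.5 and 50.3 CPM in the other nuclei. QCM replicate 3 was the highest sample in cluster 4 as in the other nuclei, and the mean log2 ratio was 2.23 ± 0.94 (SD, n = 6; higher in 6 of 6).

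Gm10800 followed Gm26870. It was at 35.8, 51.4 and 1036 CPM in QCM and 8.56, 128 and 70.7 CPM in SCM, against 13.9, 3.88, 154, 2.29, 13.5 and 8.37 CPM, with a log2 ratio of 2.12 ± 0.88, higher in 6 of 6. Gm10801 was at 16.9, 27.2 and 371 CPM in QCM and 3.42, 69.5 and 20.5 CPM in SCM, against 6.95, 1.71, 52.9, 4.01, 5.61 and 3.66 CPM, with a log2 ratio of 1.68 ± 1.14. SCM replicate 1, in which only 2 UMIs of Gm10801 were counted in cluster 4, was the sample in which it was not higher. QCM replicate 3 contributed 83.6% of the Gm26870, 89.97% of the Gm10800 and 87.9% of the Gm10801 UMIs of the cluster; without it, the mean log2 ratios were 2.14, 2.00 and 1.48.

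**Figure D2:**
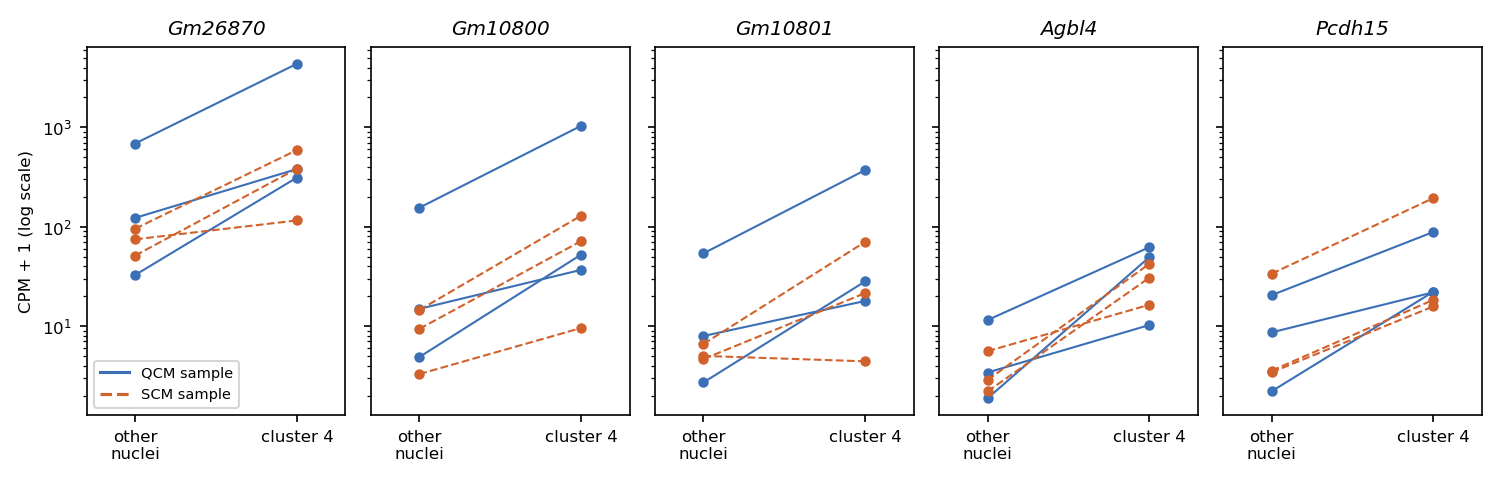
CPM + 1 on a log axis for the genes given for cluster 4, in all other nuclei and in cluster 4; each line joins the pair of values of one sample. The lines rise in 6 of 6 samples for Gm26870, Gm10800, Agbl4 and Pcdh15 and in 5 of 6 for Gm10801, and QCM replicate 3 lies above the other samples for the satellite-like genes.

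Agbl4 and Pcdh15 were below Gm26870 in 6 and 5 of 6 samples. Agbl4, a gene of 1266664 bases at chr4:110397661-111664324, was at 9.25, 48.4 and 61.2 CPM in QCM and 15.4, 41.3 and 29.7 CPM in SCM, against 0.877 to 10.5 CPM in the other nuclei (log2 ratio 2.09 ± 0.91, higher in 6 of 6). Pcdh15, of 1550396 bases at chr10:73099342-74649737, was at 20.9, 21.2 and 87.6 CPM in QCM and 193, 17.4 and 14.8 CPM in SCM, against 1.21 to 32.7 CPM (1.73 ± 0.49, higher in 6 of 6). The sample with the most Pcdh15 was SCM replicate 1, which had the least Gm26870. Over all samples the cluster held 216 UMIs of Agbl4 and 369 of Pcdh15, fewer than 1 per nucleus.

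The name given to the cluster, satellite-like transcript nuclei, thus held for the summed RNA of a few genes but not for each nucleus. Of the 13 satellite-like genes, 3 reached 20 CPM and 2 were higher in 6 of 6 samples. Of all 31319 genes with a count, 8245 reached 20 CPM and 2.15% were higher in 6 of 6. Nothing is read from these counts, since the list holds genes given for the cluster. Its median log2 ratio was 0.57, which was 0.30 without QCM replicate 3 and 0.27 without QCM replicate 3 and SCM replicate 1. UMIs of the 13 satellite-like genes made up 0.0445, 0.0408 and 0.606% of the UMIs of cluster 4 in QCM and 0.0128, 0.0819 and 0.0493% in SCM, against 0.0146, 0.00392, 0.0929, 0.00811, 0.0117 and 0.00653% in the other nuclei. In the median nucleus the share was 0 in QCM replicate 2 and in SCM replicates 1 to 3, and 0.308% in QCM replicate 3. Of all nuclei of the cluster, 771 (33.8%) held no UMI of these genes. Nuclei at 1% or more numbered 325 of 1261 in QCM replicate 3 and 12 of 1021 in the other samples, and 146 of 8883 nuclei outside the cluster in QCM replicate 3 also reached it.

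At equal depth the nuclei with such a UMI were still more frequent in cluster 4 in most samples. After thinning to 1000 UMIs, 13.5, 12.7 and 73.1% of the nuclei of cluster 4 in QCM and 9.45, 22.2 and 21.9% in SCM held at least 1, against 9.45, 3.92, 47.2, 10.2, 11.9 and 5.95% of the other nuclei. Cluster 4 was higher in 5 of 6 samples and slightly lower in SCM replicate 1. Without thinning, the shares were 58.8, 27.8, 87.2, 26.1, 43.8 and 37.0% in cluster 4 and 50.7, 9.29, 67.6, 30.4, 29.2 and 12.0% in the others, at the median depths given above. In QCM replicate 3, Gm26870 and Gm10800 stood at 4.22 UMIs to 1 in cluster 4 and at 4.45 to 1 in the other nuclei. In the other samples this ratio ranged from 4.61 to 13.4 and from 6.01 to 32.1. The highest value of each range was that of SCM replicate 1 and rested on 5 and 8 UMIs of Gm10800. The part of RNA free in the suspension in these shares was not tested.

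Among the 15 deposited clusters, cluster 4 had the highest share of satellite-like UMIs in 5 of 6 samples and the fifth highest of 9 clusters in SCM replicate 1. Clusters with fewer than 10 nuclei in a sample were left out. The mean over samples was 0.139% in cluster 4 and ranged from 0.00709 to 0.0460% in the other clusters. Without QCM replicate 3 it was 0.0459% in cluster 4 and 0.00709 to 0.0161% in the others, and without QCM replicate 3 and SCM replicate 1 it was 0.0541% and 0.00709 to 0.0147%. By the correlation of mean log2 CPM over 8245 genes, which share depth and length effects, cluster 4 was most like clusters 1 (r = 0.985) and 3 (r = 0.978), whose shares were 0.0298 and 0.0277%.

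The first genes after the satellite-like ones were mostly long genes. Their low level in the other nuclei follows in part from ranking by ratio and is not a result. Of 8245 genes with a mean of at least 20 CPM in either set of nuclei, 512 were higher in cluster 4 in 6 of 6 samples (6.21%) and 1444 were lower in 6 of 6 (17.5%), but only 41 of the former were at least 2-fold higher on average and 5 of the latter at least 2-fold lower. Nothing is read from these counts, since the cluster was made from these genes. Genes of 100 kb or more made up 14.6% of those with a mean of at least 5 CPM and 6 of the 10 lowest genes. Among the 15 leading genes, 10 spanned 100 kb or more. The cell adhesion and synapse genes Epha6 (70.2 ± 87.3 CPM against 13.1, log2 ratio 1.71), Lsamp (49.5 against 10.8, 1.65) and Ctnna2 (27.1 against 5.52, 1.504) were among them, all higher in 6 of 6. The kinase gene Prkg1 (1.54) and the genes Ttc28 (1.61), Wdr72 (1.53) and Klhl14 (1.53) were of the same kind, whereas the cytokine subunit gene Il27 (63.5 against 13.6 CPM, 1.66), D630023O14Rik (1.53) and the noncoding Gm10062 (1.51) were short.

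**Figure D3:**
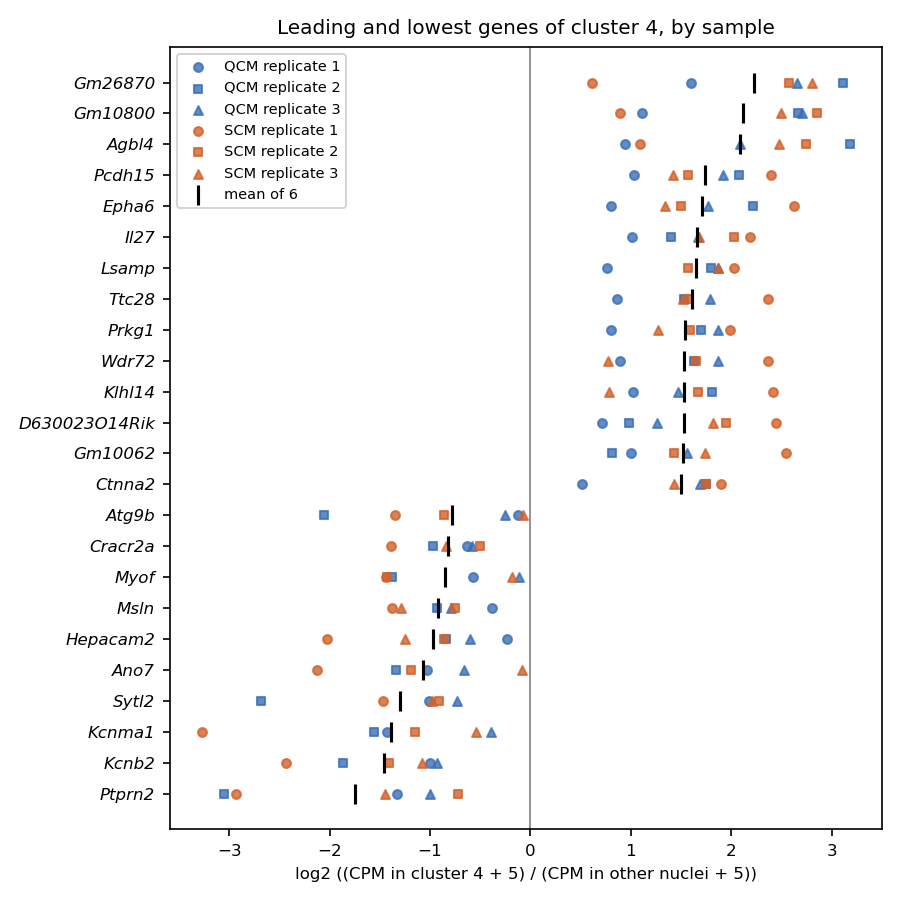
Log2 ratio of CPM in cluster 4 to CPM in that sample's remaining nuclei, with 5 added to both, for 14 leading and the 10 lowest genes with the same direction in all samples; points are samples and bars the mean of 6. QCM replicate 1 lies below the mean for all 14 leading genes, and SCM replicate 1 is the highest sample for Pcdh15, Epha6, Wdr72, Klhl14 and Gm10062, among others.

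QCM replicate 3 and SCM replicate 1 carried the levels of these genes more than their ratios. Without both samples, the mean log2 ratio of the 15 leading genes still ranged from 1.23 to 2.53, and 29 of the 41 genes stayed at least 2-fold higher. Yet only 8 genes then met the limit of 2-fold and 20 CPM, and only 8 of the 41 kept a mean of 20 CPM. A list of 24 long genes of neuronal type, chosen with earlier results known, had a median log2 ratio of 0.92 without both samples. Of its members in all 6 samples, 15 were at least 2-fold higher (0.217% of all 31319 genes with a count), 15 were higher in 6 of 6 samples (2.15% of all genes) and 1 was lower in 6 of 6 (8.33% of all genes), with a median log2 ratio of 1.12 against -0.01 over all genes. Nothing is read from these counts, since the list was chosen with this pattern known and holds Agbl4 and Pcdh15. The member at the highest level, the phosphatase receptor gene Ptprd, was the exception, at 605 ± 238 CPM against 737 ± 270 (log2 ratio -0.30, lower in 6 of 6).

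Markers that define neurons were low in cluster 4 and in the other nuclei. Of 11 neuron and glia markers measured, 0 were higher in 6 of 6 samples and 0 reached 20 CPM; Rbfox3, a nuclear protein of mature neurons, was at 8.82 ± 5.48 against 5.40 ± 3.75 CPM and Syt1, a synaptic vesicle protein, at 8.27 ± 8.34 against 2.76 ± 2.15 CPM. The summed level of these markers ranged from 11.3 to 57.7 CPM in cluster 4 and from 12.7 to 32.0 CPM in the other nuclei, and was higher in cluster 4 in 5 of 6 samples. Fibroblast (0 to 16.9 CPM), immune (0 to 15.4 CPM) and endothelial markers (2.17 to 34.8 CPM, higher than in the other nuclei in 5 of 6 samples) were also low in sum in cluster 4, with the highest sum of each in QCM replicate 3 (against 8.26, 7.48 and 14.3 CPM in its other nuclei), and among them Vim, Dcn, Cd68, Ptprc and Tek each had a mean under 4 CPM.

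Long genes that were low elsewhere took a higher share of UMIs in cluster 4 than in the other nuclei together. Long genes at a higher level elsewhere took a lower one. For each sample, genes were split by their level in the other nuclei of the remaining 5 samples, so that the sample itself did not set the split. Cluster 4 was left out of that level in every sample, so genes raised in it could stay in the low set. The directions of both long classes are therefore in part built in, and no conclusion is drawn from their agreement over samples. Genes of 100 kb or longer below 5 CPM elsewhere, 1185 to 1226 in number, took 0.127, 0.210 and 1.15% of the UMIs of cluster 4 in QCM and 0.540, 0.285 and 0.292% in SCM. The ratio to the other nuclei was between 1.31 and 3.40 and above 1 in 6 of 6 samples, and between 1.501 and 3.35 against other nuclei of like depth. Shorter genes below 5 CPM gave ratios of 0.899 to 1.44. Long genes at 5 CPM or more gave ratios of 0.819 to 0.957, below 1 in 6 of 6 (21.9% ± 5.60 of UMIs against 24.5% ± 5.13, SD, n = 6). Against other nuclei of like depth, these ratios were 0.977 to 1.44 and 0.873 to 0.993. For the long genes, QCM replicate 1 moved from 0.819 to 0.993. The higher share of long genes low elsewhere was not limited to cluster 4. Its mean over samples was 0.479% in cluster 9, 0.434% in cluster 4 and 0.305% in cluster 10, and cluster 4 ranked 5, 3 and 1 in QCM replicates 1 to 3 and 1, 3 and 2 in SCM replicates 1 to 3 among the 9 to 15 clusters of a sample. The level elsewhere was taken outside cluster 4, so that genes high in another cluster could be left out and genes high in cluster 4 could not, which favours cluster 4 in this ranking. Without QCM replicate 3 and SCM replicate 1, the means were 0.426, 0.229 and 0.246%.

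**Figure D4:**
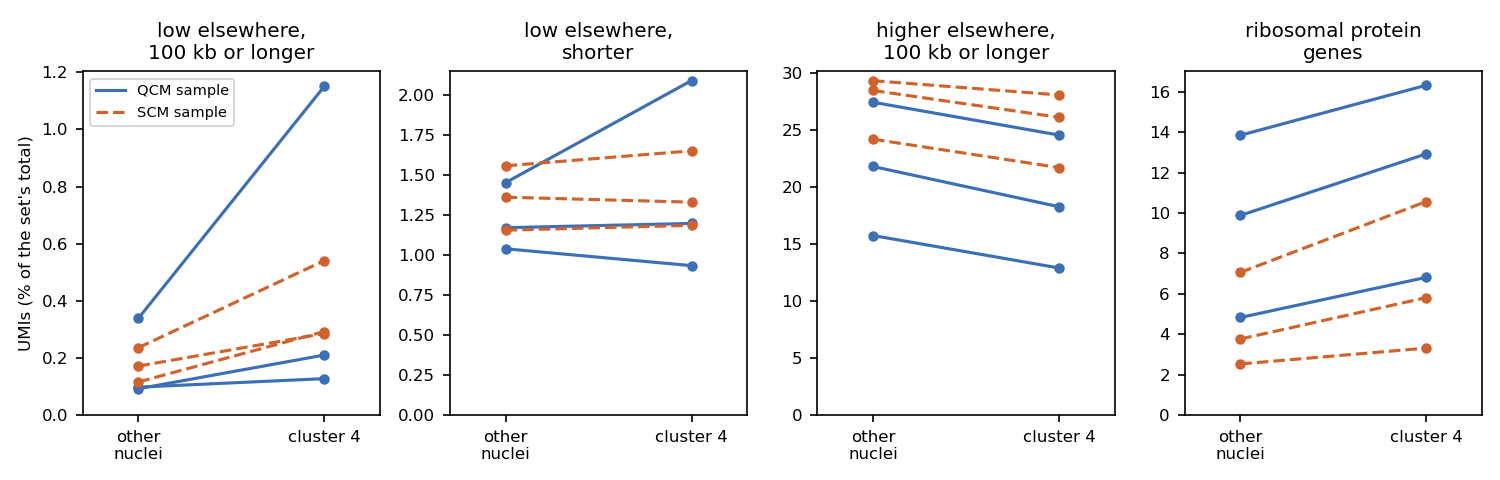
Share of UMIs from genes low elsewhere (below 5 CPM in the other nuclei of the remaining samples) and long, low and shorter, or higher and long, and from ribosomal protein genes; each line joins the other nuclei and cluster 4 of one sample. The first and last panels rise and the third falls in 6 of 6 samples.

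The length of the leading genes is given as a description, since a ranking by ratio with a minimum of 20 CPM that cluster 4 alone may meet favours genes low in the other nuclei. Of the 100 leading genes, 35.0% spanned 100 kb or more and 25 spanned 500 kb or more, with a median length of 5.63 kb. Among genes with a mean of at least 5 CPM, 14.6% spanned 100 kb or more and 1.72% spanned 500 kb or more, with a median of 24.2 kb. Among the 100 lowest genes these values were 23.2%, 4.04% and 38.1 kb. Among the 50 leading genes 66.0% spanned 100 kb or more, and among 200 only 17.5%. The 100 leading genes lay on 20 chromosomes, had a median GC content of 48.9% and a longest run of A with a median of 6 bases, and 84.0% were protein coding. Genes with a mean of at least 5 CPM were close to this, with 48.6%, 6 bases and 86.5%.

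The short genes included those of the ribosome. Of 82 genes of cytosolic ribosomal proteins, 75 were higher in cluster 4 in 6 of 6 samples and 0 were lower in 6 of 6 (2.15 and 8.33% of all genes with a count, 6.21 and 17.5% of those at 20 CPM or more), with a median log2 ratio of 0.44. Rps12 had the largest ratio (2555 ± 1419 against 1799 ± 1175 CPM, log2 0.58) and Rpl23 the highest level (2698 ± 1554 against 2050 ± 1277 CPM, 0.40). Together they made up 16.3, 6.81 and 12.9% of UMIs in QCM and 5.81, 3.31 and 10.6% in SCM, against 13.8, 4.83, 9.88, 3.76, 2.53 and 7.06% in the other nuclei. The share varied more between samples than between cluster 4 and the rest of a sample, and the mitochondrial percentage, given above, was higher in the same 6 samples; its part in this was not tested.

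The genes of a list made for nuclear long noncoding RNAs differed among themselves. The list of 10 also held the coding gene Lars2 and the models Gm42418 and AY036118. Of the 10, 2 were higher and 3 lower in cluster 4 in 6 of 6 samples (2.15 and 8.33% of all genes with a count), with a median log2 ratio of -0.07. Their summed level, in which Gm42418 was the largest member, was higher in 5 of 6. Malat1, of nuclear speckles, was at 12931 CPM in cluster 4 against 19579 CPM (log2 ratio -0.62), and Neat1, the scaffold of paraspeckles, at 552 ± 125 against 873 ± 208 CPM (-0.66); both were lower in 6 of 6 samples. Gm42418, which overlaps ribosomal RNA sequence, was instead at 59860 ± 21084 against 42732 ± 15486 CPM (0.50, higher in 6 of 6). It alone accounts for much of the UMIs of single-exon genes, which were 11.2% in cluster 4 and 9.83% in the other nuclei; without it and AY036118, these were 4.81 and 5.24%, lower in 6 of 6. Of 76 histone genes, variants included, 4 were higher and 3 lower in 6 of 6 (5.26 and 3.95%, against the same shares of all genes), with H2afz at 480 ± 229 against 395 ± 207 CPM and Hist1h2af at 13.0 against 8.36 CPM.

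The nuclei of cluster 4 carried the RNA of intestinal epithelium at levels close to those of the other nuclei. For comparison with the counts below, 6.21% of genes at 20 CPM or more were higher and 17.5% lower in 6 of 6 samples. Of all genes with a count, these shares were 2.15 and 8.33%. Of 15 epithelial identity genes, all at 20 CPM or more, 0 were higher and 1 was lower in 6 of 6 samples, with a median log2 ratio of 0.04; Lgals4, a brush border galectin, was at 939 ± 323 against 815 ± 257 CPM, and the junction gene Cldn3 at 174 ± 81.7 against 152 ± 71.8 CPM. Of 12 stem cell genes, 1 was higher (8.33%, Hmgb2, 270.3 against 225 CPM) and 2 were lower in 6 of 6 (16.7%, near the share of genes at 20 CPM or more). Slc12a2 was at 1019 ± 240 against 1039 ± 219 CPM. None of 12 replication and mitosis genes had one direction in 6 of 6, with Pola1 at 255 against 274 CPM and Aurkb at 37.5 CPM in both. The summed level was higher in cluster 4 in 4 of 6 samples for the epithelial identity, 1 for the stem cell and 2 for the replication and mitosis genes.

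Markers of mature cells are given by list, with 2.15% of all genes with a count higher and 8.33% lower in 6 of 6 samples. Of 14 enterocyte genes 2 were higher and 1 lower in 6 of 6, with the fatty acid binding gene Fabp1 at 739 ± 719 against 596 ± 603 CPM. Of 14 goblet and Paneth genes 3 were higher and 0 lower, and their summed level was higher in 6 of 6 samples (1143 to 5284 CPM against 974 to 4604 CPM), with Itln1 at 491 against 401 CPM and Tff3 at 361 against 287 CPM, whereas the mucin gene Muc2 was at 35.4 against 43.6 CPM. Of 14 enteroendocrine genes 1 was higher and 2 lower, with Chgb at 85.8 ± 35.5 against 73.5 ± 43.6 CPM and the transcription factor gene Rfx6 at 4.32 against 16.2 CPM (log2 ratio -1.18, lower in 6 of 6). Tuft cell genes stayed at 19.4 to 46.8 CPM in sum, led by Il17rb (10.1 against 17.8 CPM).

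The 10 lowest genes of the cluster had mean log2 ratios of -1.75 to -0.78. Ptprn2, a protein of dense-core granules, had the lowest ratio, at 37.7 against 118 CPM (log2 ratio -1.75), followed by the potassium channel genes Kcnb2 (25.3 against 71.9 CPM, -1.46) and Kcnma1 (32.6 against 84.0, -1.39) and the granule trafficking gene Sytl2 (-1.30). Ano7 (-1.07), Hepacam2 (-0.97), the fetal marker Msln (-0.92), the YAP target Myof (-0.85), Cracr2a (-0.82) and Atg9b (-0.78) completed the 10, of which 6 spanned 100 kb or more. Of 14 fetal genes 0 were higher and 2 lower in 6 of 6, of 21 YAP target genes 0 and 3, and of 14 immediate early and stress genes 0 and 2. Each of these shares of lower genes was 14.3%, against 8.33% of all genes with a count and 17.5% of those at 20 CPM or more, and the median log2 ratios were -0.06, -0.15 and -0.10. The summed level was higher in cluster 4 in 3 of 6 samples for the fetal, 0 for the YAP target and 5 for the stress genes. For the YAP targets it was 469.5 to 1299 CPM in cluster 4 against 589 to 1517 CPM. In these lists S100a6 was at 369 against 371 CPM, Il33 at 1.49 against 0.573 CPM, Crim1 at 213 against 224 CPM, Gadd45b at 17.8 against 11.9 CPM and Hsp90aa1 at 232 against 207 CPM.

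The question whether SCM altered these nuclei was addressed by summing the UMIs of cluster 4 per sample. Of 9165 genes tested, 0 were called between SCM and QCM (0%) at an adjusted p of 0.05 with the edgeR quasi-likelihood test; at an unadjusted p under 0.05, 925 passed (10.1%), 180 higher and 745 lower in SCM. DESeq2 and voom with limma also called 0, with 709 and 757 genes at an unadjusted p under 0.05. With 1 sample left out, the edgeR count at that threshold ranged from 249 without QCM replicate 1 to 1539 without QCM replicate 2. Without a filter on low counts, 445 of 27255 genes were called by edgeR, 432 of them lower in SCM, and the median log2 difference over all genes moved from 0.03 to -0.31. Sums for cluster 4 ranged from 330484 UMIs in QCM replicate 2 to 2485862 in QCM replicate 1.

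None of the genes given for the cluster was called with the filter on low counts. The estimated log2 differences of SCM from QCM were -2.74 ± 1.21 for Gm10800, -2.55 ± 1.15 for Gm10801, -2.48 ± 1.03 for Gm26870, -0.60 ± 0.61 for Agbl4 and 0.47 ± 0.89 for Pcdh15 (SE; edgeR, adjusted p = 0.494, 0.494, 0.494, 0.692 and 0.834). The CPM given above overlapped between the media for each of them. Without the filter, Gm10800 (-2.72, edgeR adjusted p = 2.2e-12), Gm10801 (-2.53, 7.2e-11) and Gm26870 (-2.47, 5.1e-06) were called lower in SCM, whereas over the other alternatives their adjusted p ranged from 0.250 to 0.988. The lower satellite-like level in SCM rested on QCM replicate 3, without which the differences were 0.53 for Gm10800, 0.35 for Gm10801 and -0.12 for Gm26870. Without QCM replicate 3 and SCM replicate 1 they were 1.05, 0.87 and 0.30 for Gm10800, Gm10801 and Gm26870.

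CPM did not overlap between the media for 1228 of the 9165 genes (13.4%). Of these, the genes with the smallest p among the lower ones are given as values, since none was called with the filter. Acaa1b, a peroxisomal thiolase, was at 20.5, 18.2 and 20.9 CPM in QCM and 1.71, 6.52 and 3.42 CPM in SCM (log2 difference -2.64 ± 0.48, edgeR adjusted p = 0.494). These values rested on 51, 6 and 42 UMIs in QCM and on only 1, 3 and 3 UMIs in SCM. The zinc transporter gene Slc39a5 was at 83.3, 78.7 and 66.2 CPM and at 27.4, 30.4 and 38.8 CPM (-1.41 ± 0.27). Mrpl2, of the mitochondrial ribosome (-1.75), Pgrmc2, a heme binding membrane protein (-1.08), and Zfp622 (-1.25) came next. In the other nuclei, the media were also apart for Slc39a5 and Mrpl2 but overlapped for Acaa1b, Pgrmc2 and Zfp622.

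Among the genes with higher values in SCM, Adcy8, an adenylyl cyclase, was at 35.0, 45.4 and 32.3 CPM in QCM and 97.6, 95.6 and 71.9 CPM in SCM (1.07 ± 0.24, edgeR adjusted p = 0.494). Antxr2, a receptor for matrix proteins and anthrax toxin, was at 67.2, 81.7 and 62.2 CPM and at 152, 191 and 113 CPM (0.93 ± 0.24). Fam185a (0.83), Far1 (0.94) and Mgam2-ps (1.41) followed, the last being a pseudogene that may share reads with its parent. The media were also apart in the other nuclei for Mgam2-ps, at 10.4, 17.7 and 20.5 CPM in QCM and 60.5, 54.4 and 48.7 CPM in SCM. The same held there for Antxr2 and Far1, whereas Adcy8 and Fam185a overlapped between the media in the other nuclei. Without the filter, Acaa1b, Slc39a5, Mrpl2, Pgrmc2, Zfp622 and Mgam2-ps were called (edgeR adjusted p = 0.00251, 0.00218, 2.7e-04, 0.0328, 0.0194 and 0.0294), and Adcy8, Antxr2, Fam185a and Far1 were not.

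By list, median differences were negative for the mature cell genes and positive for the fetal genes, with no gene called. The median log2 difference of SCM from QCM was -1.18 over the 10 enterocyte genes tested, of which 6 were lower at an unadjusted p under 0.05, -1.04 over 11 goblet and Paneth genes (7 lower), -1.23 over 4 enteroendocrine genes (4 lower) and 1.29 over 5 fetal genes (3 higher). For comparison, 8.13% of all genes tested were lower and 1.96% higher at that threshold, with a median of 0.03. It was -1.06 over 77 ribosomal protein genes (7 lower), -0.54 over 24 histone genes (4 lower) and -2.55 over the 3 satellite-like genes tested. For 17 long genes of neuronal type it was -0.01, for 15 epithelial identity genes -0.40, for 10 stem cell genes 0.37 and for 12 replication genes 0.06. For 8 genes of the list made for nuclear noncoding RNAs it was 0.12, for 9 YAP targets 0.41 and for 7 stress genes -0.32. Tuft, fibroblast, immune, endothelial and neuronal markers were too low to be tested. These medians were not computed with samples left out. The summed goblet and Paneth level in cluster 4 was 5284, 1601 and 1761 CPM in QCM replicates 1 to 3. In SCM replicates 1 to 3 it was 1436, 1295 and 1143 CPM. In the other nuclei it was 4604, 1436 and 1631.5 CPM in QCM and 1021, 1271.5 and 974 CPM in SCM. The summed enterocyte level in cluster 4 overlapped between media, at 5684, 1825 and 3057.5 CPM in QCM and 1229, 2064 and 2259 CPM in SCM. The summed fetal level in the other nuclei was 467, 159 and 381 CPM in QCM and 756, 1231.5 and 698 CPM in SCM. The interaction test given below called 0 of the enterocyte, goblet and Paneth, enteroendocrine and fetal genes.

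The medium effect in cluster 4 was then set against that of all nuclei outside it, with the sample as a block. Of 15188 genes tested, 8 differed (0.0527%), 5 with a more positive and 3 with a more negative effect in cluster 4 (edgeR interaction test); 796 passed an unadjusted p under 0.05, and DESeq2 called 0, with 307 at that threshold. The count was 4 without QCM replicate 3, 5 without SCM replicate 2, 34 without SCM replicate 3 and 2 without the 6% of nuclei with the most UMIs. None of the genes given for the cluster was called in all 6 samples: the differences of the effects were 0.59 ± 0.24 for Gm10800 (adjusted p = 0.833), 0.28 for Gm10801, -0.08 for Gm26870, 0.91 for Agbl4 and 0.52 for Pcdh15. Without QCM replicate 3 and SCM replicate 1, Gm26870 was called at 0.64 (edgeR adjusted p = 0.0288, against 0.701 to 1 in the other alternatives), and Gm10800 was at 1.28 (0.0571, against 0.514 to 1 in the others).

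The genes with a more positive effect in cluster 4 were largely those of SCM replicate 1. Lrp1b, a lipoprotein receptor of a very long gene, was at 146, 15.1 and 303 CPM in QCM and 1792, 60.8 and 31.9 CPM in SCM in cluster 4, against 98.9, 5.89 and 154 CPM and 306, 20.3 and 21.9 CPM in the other nuclei (difference of the log2 effects 1.20 ± 0.18, edgeR adjusted p = 1.27e-04). Grik1, a kainate receptor, was at 189, 9.08 and 398 CPM and 2402, 52.1 and 29.7 CPM in cluster 4 (1.04 ± 0.21, adjusted p = 0.0182). Xlr5a, of a multicopy X-linked family whose counts are therefore uncertain, reached 868 CPM (1.22 ± 0.20) and Pde6a, a photoreceptor phosphodiesterase, 312 CPM in cluster 4 of SCM replicate 1 (1.28 ± 0.27).

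Lrp1b, Grik1, Xlr5a and Pde6a were highest in the same 3 samples, in cluster 4 and in the other nuclei. In cluster 4 the UMIs of Grik1 stood to those of Lrp1b at 1.298, 1.314 and 1.340 in QCM replicates 1 and 3 and SCM replicate 1, those of Xlr5a at 0.431, 0.469 and 0.484 and those of Pde6a at 0.169, 0.176 and 0.174. In the remaining samples, with 5 to 28 UMIs of Lrp1b, these ratios were 0.600 to 0.929, 0.250 to 0.400 and 0.250 to 0.800. In the other nuclei of all 6 samples they were 1.28 to 1.67, 0.438 to 0.667 and 0.167 to 1.23. In the other nuclei of QCM replicates 1 and 3 and SCM replicate 1 alone, Grik1 stood at 1.28, 1.51 and 1.37. There Xlr5a stood at 0.440, 0.542 and 0.545 and Pde6a at 0.186, 0.224 and 0.167. The ratios were examined after the values had been seen. Without SCM replicate 1, the difference turned to -0.63 for Xlr5a, -0.61 for Grik1 and -0.02 for Pde6a, and was 0.09 for Lrp1b. Ctrb1, which encodes the pancreatic enzyme precursor chymotrypsinogen, was at 39.8, 6.05 and 21.9 CPM in QCM and 39.4, 19.6 and 105 CPM in SCM in cluster 4, where SCM replicate 3 was the highest (1.38 ± 0.26, and 0.50 without that sample). Calls were also lost without QCM replicate 1 for Ctrb1 (1.31), Grik1 (0.90) and Pde6a (1.15), without QCM replicate 2 for Grik1 (1.01) and Pde6a (1.31) and without QCM replicate 3 for Pde6a (1.31). Without the 6% of nuclei with the most UMIs, Rbms3 kept its call (-1.66), and the differences without a call were 0.59 for Lrp1b, 0.60 for Xlr5a, 0.27 for Ctrb1, 0.44 for Grik1, 0.82 for Pde6a, -1.42 for Cdh13 and -0.39 for Ahnak.

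**Figure D5:**
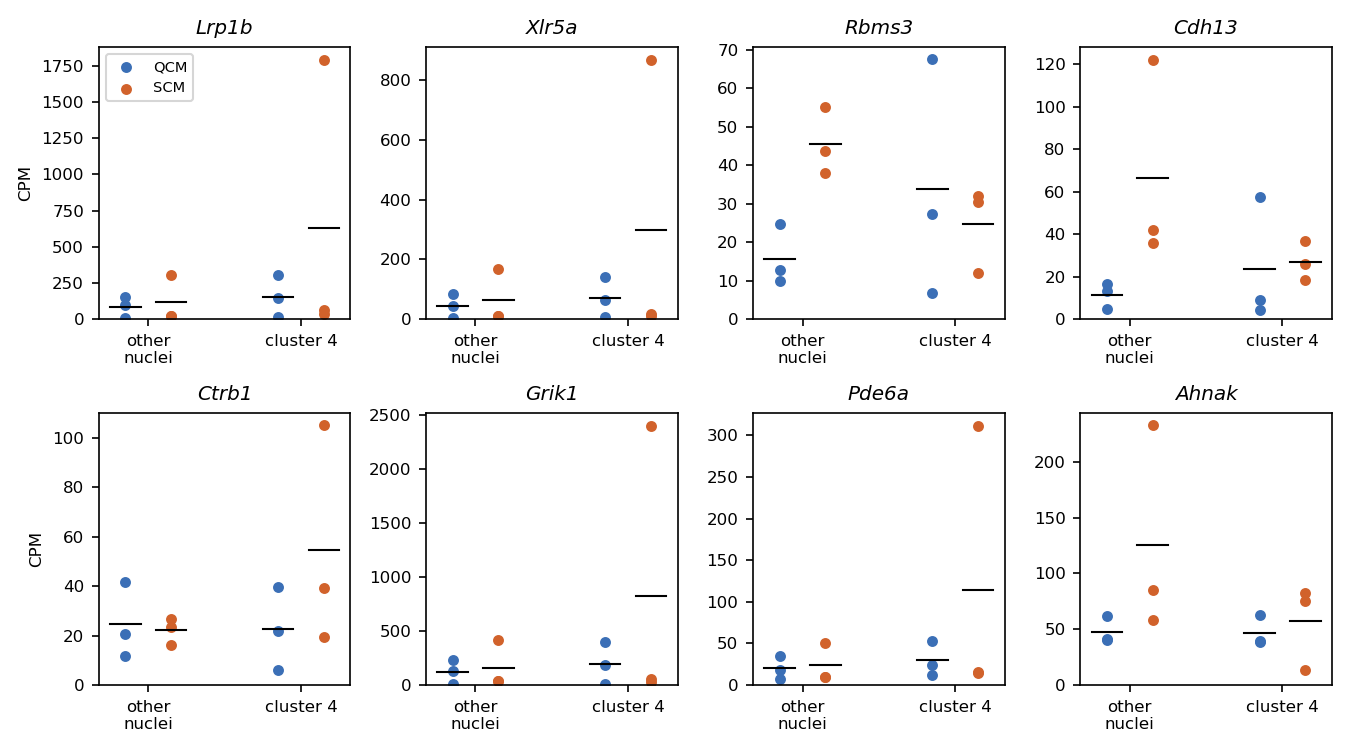
CPM in the other nuclei and in cluster 4 for the 8 genes whose medium effect differed between them; points are samples (QCM blue, SCM orange) and bars the mean of 3. For Lrp1b, Xlr5a, Grik1 and Pde6a the SCM mean in cluster 4 is set by 1 sample, SCM replicate 1.

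The 3 genes with a more negative effect in cluster 4 had a higher mean in SCM in the other nuclei. Rbms3, an RNA-binding protein, was at 9.78, 12.7 and 24.7 CPM in QCM and 43.6, 55.2 and 37.9 CPM in SCM in the other nuclei, and at 6.84, 27.2 and 67.7 CPM and 12.0, 30.4 and 31.9 CPM in cluster 4, where the media overlapped (-1.78 ± 0.32, edgeR adjusted p = 0.00151). Cdh13, or T-cadherin, was at 13.1, 4.51 and 16.4 CPM and 41.9, 122 and 35.6 CPM in the other nuclei, and at 4.02, 9.08 and 57.2 CPM and 25.7, 36.9 and 18.3 CPM in cluster 4 (-2.14 ± 0.38, adjusted p = 0.00151). Ahnak, a large scaffold protein, was at 47.7 ± 11.9 CPM in QCM and 125 ± 94.0 CPM in SCM in the other nuclei, and at 38.6, 39.3 and 63.2 CPM and 13.7, 82.5 and 75.3 CPM in cluster 4 (-1.01 ± 0.22, adjusted p = 0.0308). QCM replicate 3 was the highest QCM sample in cluster 4 for all 3, and without it the difference was 0.04 for Cdh13, -0.80 for Rbms3 and -0.94 for Ahnak, with no call for any of them. Without SCM replicate 2 the calls for these genes were also lost (-1.73 for Rbms3, -1.70 for Cdh13 and -0.62 for Ahnak), and for Ahnak without QCM replicate 1 (-1.06) or 2 (-1.03).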

How the data were processed

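Jejunal organoid nuclei from 3 QCM and 3 SCM samples were analysed from the deposited files. The authors counted reads with Cell Ranger on mm10 (version 2.1.1 per the labels), removed nuclei with outlying totals, features or mitochondrial share, integrated the samples and clustered the nuclei. The deposited matrices hold UMI counts per gene and nucleus, and the table of nuclei deposited by the authors holds the cluster number, the mitochondrial fraction and projection scores, which were not used for results. Deposited log values and whole-series matrices were not used. Groups came from the labels.

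Counts were summed per sample over cluster 4 and over all other nuclei, with no further filter; no doublet caller was run, and leaving out the 6% of nuclei with the most UMIs was an alternative. Sample totals were 4071926 to 41035733 UMIs. Genes were tested in R 4.3.3 with edgeR 4.0.16 (quasi-likelihood, TMM, filterByExpr, Benjamini-Hochberg over all genes tested), with DESeq2 1.42.0 and limma 3.58.1 as alternatives; the interaction fit held cluster 4 and other nuclei of each sample with the sample as a block. Quantities per sample were compared by two-sided exact permutation in Python 3.11.15. Ratios to the other nuclei used a pseudocount of 5 CPM and were given no test. Fits were tested on simulated data. Gene models and transcripts were those of GENCODE M21 on GRCm38. The members and the gene lists were chosen with earlier results of these data known. Named genes were the 5 given for the cluster; the 15 largest and 10 smallest ratios among genes with at least 20 CPM and one direction in 6 samples; up to 5 genes per direction with the smallest p among those called or, with none called, not overlapping between media; and, of each list, the members with the highest level and the largest ratio. A leading gene and a tuft cell gene that the rule named are not reported here. Others named (Ptprd, Malat1, Neat1, Muc2, Rfx6) were picked with their values in view. Of 18 replication and mitosis genes listed, 12 were analysed, and single mitochondrial genes were not analysed here.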

Additional observations from a re-analysis of the deposited data

Results flagged for a closer look

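The medium effect differed between cluster 4 and the other nuclei for 8 genes by the edgeR interaction test, whereas DESeq2 called 0. The difference of the log2 effects was 1.20 for Lrp1b, 1.22 for Xlr5a, 1.38 for Ctrb1, 1.04 for Grik1, 1.28 for Pde6a, -1.78 for Rbms3, -2.14 for Cdh13 and -1.01 for Ahnak. Without SCM replicate 1 it was 0.09 for Lrp1b, -0.63 for Xlr5a, -0.61 for Grik1 and -0.02 for Pde6a. No cause of these differences was tested.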

How the results depend on the processing

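Settings without QCM replicate 3 and SCM replicate 1 were chosen after seeing the data. The log2 ratio of the share of cluster 4 ranged from -1.16 to 1.72 when 1 sample was left out and was -0.44 without both samples. The number of genes called between the media was 0 in all settings except without a filter on low counts (445), and 419 of these had also been tested with the filter; the cause was not tested. The number with a different medium effect was 13 with library size alone, 24 without a filter, 0 with DESeq2, 2 without the 6% of nuclei with the most UMIs, 3 without both samples and 4 to 34 when 1 sample was left out; of the 8 calls, 8, 8, 0, 1, 1 and 4 to 7 were among them. The difference in UMIs ranged from -3321 to 254. The count of genes at least 2-fold higher was 68 with UMIs summed over samples, 8 without both samples and 29 to 51 when 1 sample was left out. The share of long genes was 66.0% among 50, 17.5% among 200 and 83.0% among 100 leading genes with no minimum CPM.

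Among named genes, the medium difference changed sign with voom for Pcdh15 (-0.32) and in some settings that left out samples, over which it ranged from -1.13 to 0.60 for Agbl4, -1.75 to 1.62 for Pcdh15, -3.40 to 1.05 for Gm10800, -3.66 to 0.87 for Gm10801 and -2.97 to 0.30 for Gm26870. The difference of the effects changed sign for Pcdh15 without the nuclei with the most UMIs (-0.11), for Gm10801 with DESeq2 (-0.47) and, with samples left out, for Gm10801 (-0.57 to 1.29), Gm26870 (-0.57 to 0.64), Xlr5a (-0.63 to 1.49), Grik1 (-0.61 to 1.43), Pde6a (-0.02 to 1.61) and Cdh13 (-3.05 to 0.04).

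Samples of the same number correlated in their deviations at 0.205, 0.428 and -0.00316 for numbers 1 to 3. Correlations between samples of unlike numbers were not computed, so these values cannot decide whether the numbers are pairs. The main fits did not take them as pairs. With the replicate number as a block, the share gave 0.46, 0 genes were called (1125 at an unadjusted p under 0.05) and the difference in UMIs was -1996. The summed UMIs of cluster 4 were fewest in QCM replicate 2 (330484), and the median UMIs per nucleus were lowest in QCM replicate 3 (1191).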
